A study of Canis lupus familiaris with 21 samples.

Results

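Areas of canine cutaneous histiocytoma (CCH) in which lymphocytes had gathered were compared with areas made up mostly of tumor cells, both from stage 2, the stage at which lymphocytes enter the tumor. The libraries were chosen by their titles alone: the 6 lymphocyte-enriched stage 2 libraries (group 2b) were set against the 5 tumor cell-enriched stage 2 libraries (group 2a), 11 of 21 in the series, and all 800 probes of the nCounter Canine IO Panel were described. The tissue was formalin-fixed and paraffin-embedded (FFPE) skin tumor of privately owned dogs of many breeds, and neither a treatment nor a genotype is named. Areas were picked under the microscope by the share of lymphocytes or tumor cells and punched into new paraffin blocks, so that group 2b still held tumor cells. Group 2b had 2 libraries of 1 dog each (replicates 1 and 2), 3 pools of 4 dogs (replicates 3 to 5) and 1 pool of 3 dogs (replicate 6), of 0.3 to 6 years of age where the labels give it. The sources differ on the age of the youngest of them. Group 2a had 5 libraries of 1 dog each, of 0.6 to 3 years. No group 2a dog shared breed, age and sex with a group 2b dog where the labels give all of these, though 1 dog of a pool is unspecified. Because a pool averages over dogs, p values that rest on the spread in group 2b may be too small. Lymphocyte-enriched areas of stage 3 (group 3, n = 5, dogs of 1.5 to 9 years) and stage 1 tumors (group 1, n = 5, dogs of 0.5 to 5 years) entered the fit to estimate the spread and served as a second pair.

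CCH arises from Langerhans cells, the dendritic cells of the epidermis, and mostly regresses without treatment after T cells, B cells and other leukocytes have moved in from the margin. B cells carry an antigen receptor built from an immunoglobulin and the CD79 chains, T cells carry the T cell receptor with its CD3 chains, and both are drawn to tissue by chemokines, small secreted proteins that are read by receptors on the cell surface. A Langerhans cell takes its growth and survival signals from receptor kinases and cytokines and shows antigen to T cells through MHC molecules and B7 ligands. In a piece of tissue, fewer cells of a type and less RNA per cell give the same reading and cannot be told apart.

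Every value is a normalized count, the number of probe molecules counted after the scaling of the authors. Counts recovered before that scaling summed to between 982552 and 1315188 per library in group 2b and between 756981 and 1128309 in group 2a. The median probe of a library stood at 332 to 362 normalized counts in group 2b and at 175 to 247 in group 2a, a difference of 0.71 in the mean log2 median (exact permutation test, two-sided, p = 0.00433, the smallest that 462 splits allow). A fold change thus depends on whether this shift is kept. Differences are given as log2 fold changes, group 2b minus group 2a, of the value plus 1. They are given on the deposited scale and on an equal-median scale, where each library was shifted to the same median, which lowers every difference by 0.71. Probes counted as called when limma gave them a p of 0.05 or less after Benjamini-Hochberg adjustment over the panel of 800, and every adjusted p below is from that fit. SE is the standard error of the fold change from the same fit. A single value in parentheses after a gene is its log2 fold change on the deposited scale, and a pair gives the deposited and then the equal-median scale. RNA integrity, as the share of fragments over 200 nucleotides (DV200), averaged 74.6 ± 1.73% in group 2b (SD, n = 6) and 73.7 ± 2.69% in group 2a (n = 5, exact permutation test, two-sided, p = 0.511). By the other measure the paper gives, the RNA quality number, the groups were not alike. Every group 2b library had a lower RNA quality number than every group 2a library. RNA quality and kind of area thus differ together, and its part in the differences was not tested.

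Of the 800 probes, 38.8% were called on the deposited scale and 52.1% on the equal-median scale. On both scales 111 probes were called higher in group 2b (13.9% of the panel) and 52 were called lower (6.5%), 163 in all (20.4%). The counts for single gene lists are to be read against these shares. The deposited scale added 145 that were higher on it alone, and the equal-median scale added 252 that were lower on it alone. Only MAPKAPK2 and STAT3 were called in opposite directions, and 238 probes were called on neither. On the deposited scale 258 probes were thus called higher (32.2%) and 52 lower (6.5%), while on the equal-median scale 111 were higher (13.9%) and 306 lower (38.2%). Quantile normalization called 327 probes, 138 of them higher, and scaling by TMM factors called 329, 156 of them higher. No probe was called lower on the deposited scale that was not also lower on the other. The median log2 fold change was 2.13 on the deposited scale for the 111 higher probes and -0.86 for the 52 lower probes, beside 0.23 for all 800. For the typical probe, the 95% confidence interval reached 0.58 to either side of its log2 fold change.

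**Figure D1:**
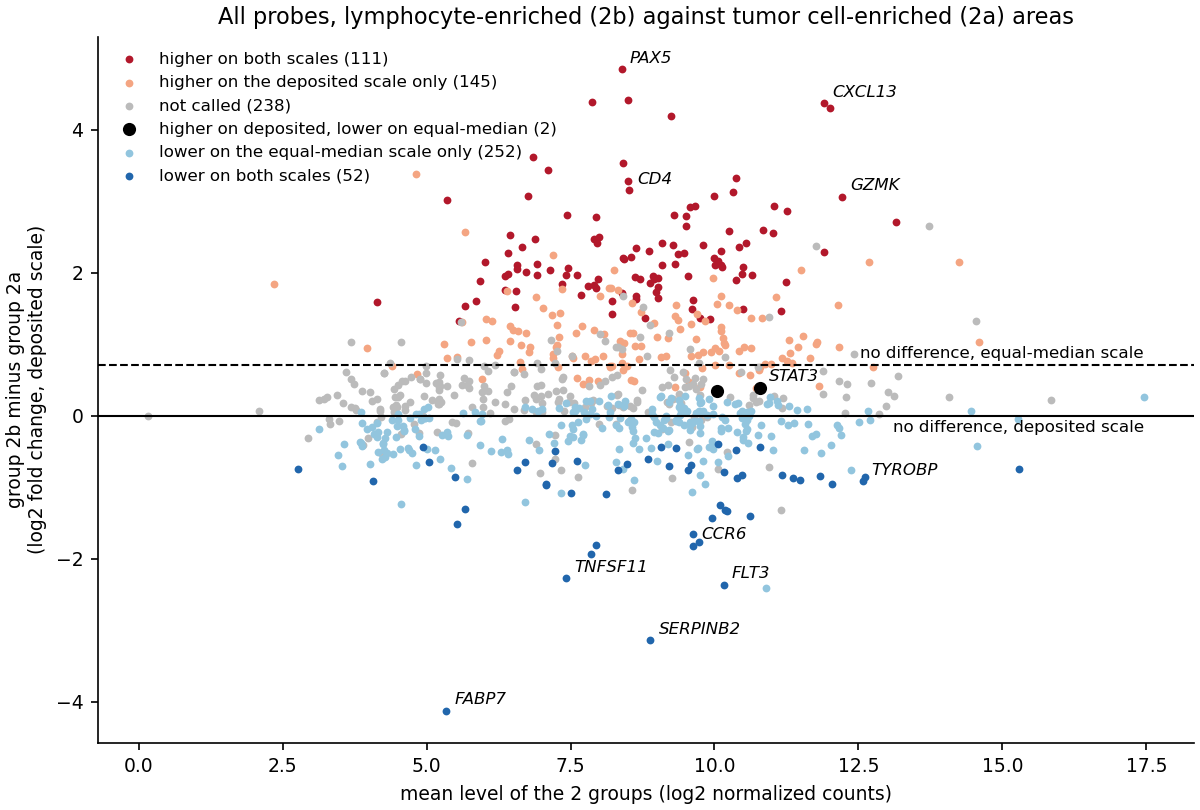
Each point is 1 of 800 probes, with the mean level of groups 2b and 2a on the x axis (log2 normalized counts) and the log2 fold change, group 2b minus group 2a, on the y axis (deposited scale); colors give the call. The solid line marks no difference on the deposited scale and the dashed line, 0.71 above it, no difference on the equal-median scale. The 111 probes higher on both scales lie above the dashed line, up to PAX5 at 4.85, and the 52 lower on both lie below the solid line, among them SERPINB2 at -3.14.

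Most of the 111 higher probes were apart library by library, though the same libraries picked these probes, which makes such separation likely. In 105 of them every group 2b library lay above every group 2a library on the deposited scale, where 21.5% of all probes did, and in 65 also on the equal-median scale, where 8.38% did. Of the 52 lower probes, 29 had every group 2b library below every group 2a library on the deposited scale (3.88% of all probes) and 48 on the equal-median scale (22.8%). The 2 single-dog libraries of group 2b both lay above every group 2a library in 107 of the 111 probes (29.4% of all probes), and both below every group 2a library in 34 of the 52 (6.5%). These libraries also entered the calls that picked the probes. With those 2 libraries alone in group 2b, however, 123 probes were called on the deposited scale and 147 on the equal-median scale.

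Libraries within a group were not alike. In group 2a, replicate 5 had the highest count of its group in 67 of the 111 higher probes and the highest in 0 of the 52 lower probes, where it was the lowest in 20. Replicate 3 was the highest in 24 of the 111, and replicate 2 was the lowest in 42. In group 2b, replicate 1, from 1 dog, was the lowest in 57 of the 111, and replicates 3 and 4, both pools of 4 dogs, were the highest in 41 and 34. Summed over 11 T cell coreceptor and adhesion genes, replicate 5 of group 2a stood at 3987 normalized counts, where the median of group 2a was 1852 and the lowest library of group 2b had 7827. Without replicate 5 of group 2a, none of the genes picked by rule lost its call on either scale.

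B cell genes were among the probes with the highest log2 fold changes. PAX5, which holds B cells to their lineage, had between 405 and 997 normalized counts in group 2b, with a median of 596, against 9.05, 17.9, 54.3, 43 and 8.18 in group 2a (log2 fold change 4.85, SE 0.66, adjusted p = 2.46e-05). Each library of group 2b exceeded the highest of group 2a by more than the whole range of group 2a. MS4A1, which encodes the surface protein CD20, had between 479 and 1192 normalized counts in group 2b, with a median of 578, against 22, 26.8, 72.4, 18.1 and 28.2 in group 2a. CD79B, a signaling chain of the B cell receptor, had between 314 and 741 normalized counts in group 2b, with a median of 369.8, against 22, 11.2, 26.1, 18.1 and 22.7 in group 2a. IGHM, the heavy chain of IgM, had between 5546 and 14078 normalized counts in group 2b, with a median of 6892, against 561, 155, 423, 219 and 875 in group 2a, with replicate 5 of group 2b the highest at 14078. POU2AF1, a coactivator of immunoglobulin genes, had between 513 and 962 normalized counts in group 2b, with a median of 589.5, against 139.7, 42.5, 198, 20.4 and 40 in group 2a (log2 fold change 3.29, SE 0.52, adjusted p = 8.05e-05), and the 2 groups did not overlap in any of these 5 genes on either scale. The groups did overlap for IGHG, the heavy chain of IgG. It had 1043 to 8275 normalized counts in group 2b against 1609, 316, 10206, 73.6 and 373 in group 2a.

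Of 15 B cell identity genes on the panel, 11 were higher on both scales, beside 13.9% of all probes. Their median was 3.08 on the deposited and 2.36 on the equal-median scale, where all probes stood at 0.23 and -0.48. The summed level of the list ran from 13573 to 26164 in group 2b against 2848 to 5343 in group 2a. CR2, the receptor for complement fragments on mature and follicular B cells, had between 692 and 1792 normalized counts in group 2b, with a median of 1065, against 56.9, 43.6, 64.3, 74.7 and 52.7 in group 2a, and CR1L, a complement receptor of the same gene family, had between 405 and 1250.2 normalized counts in group 2b, with a median of 492, against 50.4, 39.1, 55.3, 63.4 and 40.9 in group 2a. In both, replicate 3 of group 2b was the highest, as it was for PAX5, MS4A1 and CD79B. CD22 (0.27 and -0.44 on the deposited and equal-median scales) and FCRL2 (0.48 and -0.24) were called on neither scale, BLNK was higher on the deposited scale alone (1.15 and 0.44) and CD180 lower on the equal-median scale alone (595 to 1347 normalized counts in group 2b against 735 to 1437 in group 2a). Of 4 genes of plasma cells, which secrete antibody, only CD38 was higher on both scales (between 848 and 2518 normalized counts in group 2b, with a median of 1713, against 760.4, 93.8, 392, 271 and 989.9 in group 2a), and there replicate 5 of group 2a exceeded the lowest library of group 2b. PRDM1 was higher on the deposited scale only (147 to 285 normalized counts in group 2b against 79.3 to 159 in group 2a), and TNFRSF17 (0.63) and IRF4 (0.16) were not called.

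**Figure D2:**
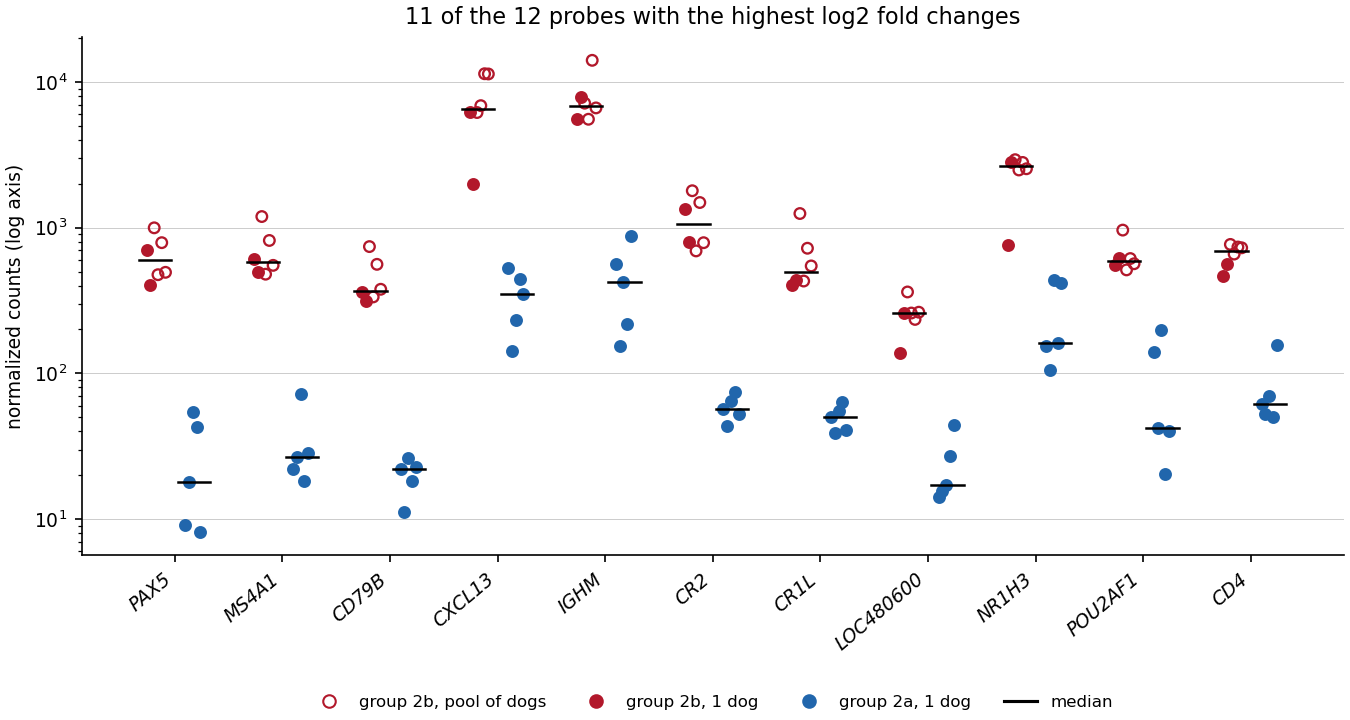
Normalized counts (y axis, log scale) in each library of group 2b (red, open for pools and filled for single dogs) and group 2a (blue), with the median as a bar, for 11 of the 12 probes with the highest log2 fold changes among those called on both scales. The groups do not overlap in any of the 11, and replicate 1 of group 2b, a single dog, is the low red point of NR1H3 at 758 normalized counts.

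Genes of lymphoid follicles and homing were also called higher. CXCL13, the chemokine that calls B cells into follicles, had between 1989 and 11388 normalized counts in group 2b, with a median of 6539.8, against 529, 143, 232, 443 and 348 in group 2a (log2 fold change 4.37, SE 0.95, adjusted p = 0.00121). Its lowest library in group 2b, replicate 2 from 1 dog, still had more than 3 times the highest count of group 2a, 529. Of 16 genes for lymphoid follicles and homing, 9 were higher on both scales and none was lower on the deposited scale. LTA, lymphotoxin alpha, which induces follicle structure, had between 57.2 and 85.9 normalized counts in group 2b, with a median of 72.1, against 6.47, 7.82, 14.1, 24.9 and 1 in group 2a, and the value of 1 is the floor to which the normalized values had been raised. CXCR5, the receptor for CXCL13, was 2.07 higher and LTB, the partner of LTA, 1.95 higher. CCR7, the receptor that leads cells to lymph nodes, had between 253 and 497 normalized counts in group 2b, with a median of 395, against 76.3, 48, 277, 82.7 and 109.99 in group 2a. Replicate 3 of group 2a exceeded the lowest library of group 2b for CCR7, whose equal-median call was lost in 6 of 21 alternatives (other settings of the fit or sets of libraries). The follicle chemokines of stroma, CCL19 (1.67 and 0.96), CCL21 (1.27 and 0.56) and CXCL12 (1.28 and 0.57), were higher on the deposited scale alone.

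All 11 T cell coreceptor and adhesion genes were called higher on both scales, with a median of 2.40 on the deposited and 1.68 on the equal-median scale, and their summed level was 7827 to 14539.9 in group 2b against 1630.1 to 3987 in group 2a. CD4, the coreceptor of helper T cells, had between 464 and 767 normalized counts in group 2b, with a median of 693, against 62.1, 52.5, 70.4, 49.8 and 157 in group 2a (log2 fold change 3.16, SE 0.42, adjusted p = 2.05e-05). CD8B, a chain of the coreceptor of cytotoxic T cells, had between 929 and 1818 normalized counts in group 2b, with a median of 1144, against 211, 109, 91.5, 198 and 395 in group 2a, and SH2D1A, an adaptor of the SLAM receptors needed for T cell help to B cells, had between 818 and 2227 normalized counts in group 2b, with a median of 1230.01, against 123, 161, 135, 174 and 355 in group 2a. In all 3 genes the highest library of group 2a was replicate 5. CD28, the costimulatory receptor for B7 ligands, had 359.8 to 769 normalized counts in group 2b against 89.2 to 188 in group 2a, and CD27, a costimulator of the TNF receptor family, had 212 to 414 normalized counts in group 2b against 51.4 to 134 in group 2a.

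Of 8 genes of the T cell receptor complex, 5 were higher on both scales: CD247, the zeta chain (between 105 and 229 normalized counts in group 2b, with a median of 138, against 18.1, 16.8, 34.2, 20.4 and 38.2 in group 2a), CD3D (between 1392 and 2263 normalized counts in group 2b, with a median of 1783, against 312, 267, 249, 387 and 788 in group 2a), CD3G (1.92), TRAC (2.11) and TRAT1, which stabilizes the complex (75.6 to 268 normalized counts in group 2b against 26 to 42.7 in group 2a). CD3E (2.05 and 1.33) and TRGC8 (1.06 to 147 normalized counts in group 2b against 1 to 1.29 in group 2a, which is at most 1 recovered count in each group 2a library) were higher on the deposited scale alone, and TRGC3 (1.68 and 0.97) was not called. Constant gene segments of 1 receptor chain are similar in sequence and their probes may share targets. Downstream of the receptor, 5 of 13 genes were higher on both scales and 1 was lower. Among the higher ones were the kinases LCK (1182 to 2231 normalized counts in group 2b against 259.9 to 825 in group 2a) and TXK (234 to 495 normalized counts in group 2b against 31.2 to 181 in group 2a) and the phospholipase PLCG1 (1.73). The kinase ZAP70 (0.12 and -0.60) was called on neither, and BCL10 (0.18 and -0.54), NFATC3 (0.25 and -0.47) and the phosphatase PTPRC (0.07 and -0.64) were lower on the equal-median scale alone. CD3EAP, which stood in this list for its name, encodes a subunit of RNA polymerase I and was lower on both scales (-0.85 and -1.56).

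GZMK, a granzyme of memory-like killer cells, had between 5253 and 11318 normalized counts in group 2b, with a median of 8115, against 394, 907, 681, 1354 and 2499.8 in group 2a (log2 fold change 3.07, SE 0.60, adjusted p = 4.94e-04). GZMB, the granzyme that starts cell death in a target, had between 1263 and 5844 normalized counts in group 2b, with a median of 3092, against 1269.9, 93.8, 151, 728 and 2263 in group 2a, with replicates 1 and 5 of group 2a above the lowest library of group 2b and the equal-median call lost in 7 of 21 alternatives. NKG7, a granule membrane protein, had between 1378 and 2785 normalized counts in group 2b, with a median of 2354, against 450.03, 254, 191, 496 and 1232 in group 2a. In all, 8 of 15 cytotoxic genes were higher on both scales and none was lower on the deposited scale. KLRF1 (-0.26 and -0.98) and NCR3 (-0.04 and -0.75), both activating receptors of NK cells, were lower on the equal-median scale alone, while NCR1, another, was higher on both (2.15 and 1.43), and GZMA (0.64 and -0.07) and CD244 (-0.08 and -0.79) were not called. Of 15 transcription factors, 4 were higher on both: EOMES of effector and memory T cells (between 1885 and 2714 normalized counts in group 2b, with a median of 2252, against 168, 234, 166, 367 and 475 in group 2a), TCF7 of naive and stem-like T cells (between 757 and 1518 normalized counts in group 2b, with a median of 1069, against 150.01, 127, 163, 169.9 and 155 in group 2a), ETS1 (1503 to 2540.3 normalized counts in group 2b against 375 to 1037 in group 2a) and MAF (1.65). FOXP3, the factor of regulatory T cells, was not called (0.16 and -0.56), nor was RORA (0.27 and -0.44). GATA3 of type 2 helper cells (-0.34 and -1.05), TOX (-0.08 and -0.79) and BATF (-0.53 and -1.25) were lower on the equal-median scale alone. FOXP3 was low in every library, at 15.2 to 30 normalized counts in group 2b against 16.8 to 22.4 in group 2a. BATF was low too, at 9.64 to 26.8 against 20.4 to 31. Neither probe can show whether the cells that express it differ between the areas.

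**Figure D3:**
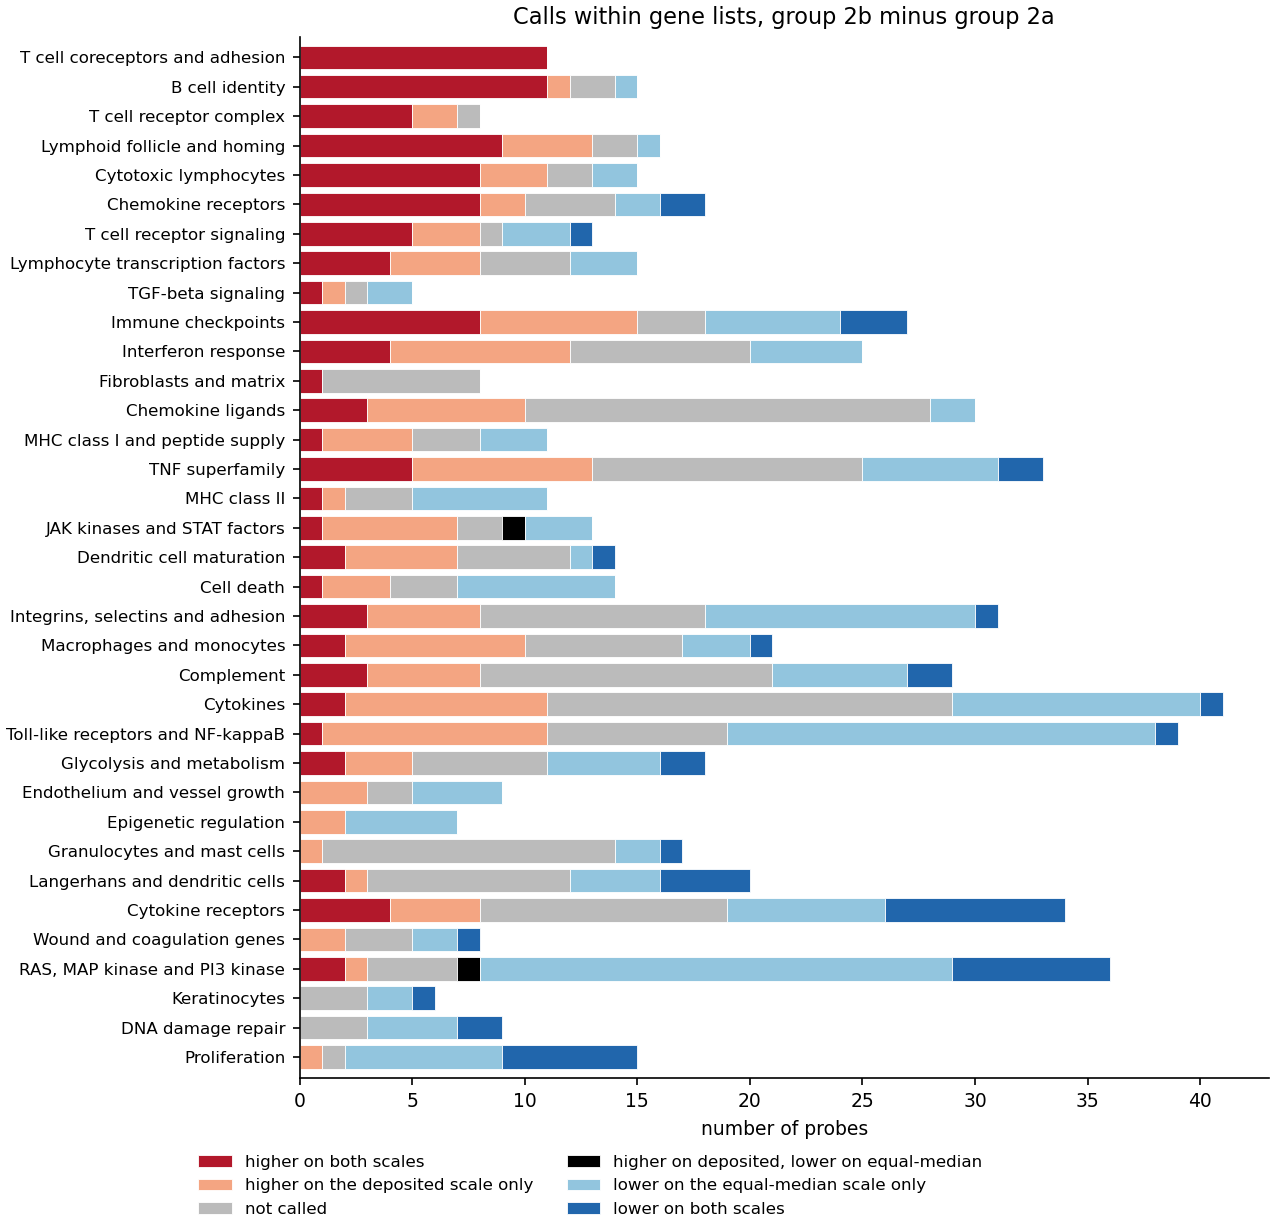
For each gene list with at least 5 probes on the panel, the bar counts probes by call (x axis, number of probes), group 2b minus group 2a, ordered by the share higher on both scales less the share lower on both. All 11 T cell coreceptor and adhesion genes are higher on both scales, at the top, and 6 of 15 proliferation genes are lower on both, at the bottom.

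Of 18 chemokine receptors, 8 were higher on both scales and 2 were lower. CXCR3, the receptor of type 1 helper and killer cells, had between 344 and 522 normalized counts in group 2b, with a median of 419.6, against 66, 53.6, 59.3, 46.4 and 205 in group 2a, replicate 5 of group 2a standing far above its group. CXCR4 had 764 to 1262 normalized counts in group 2b against 171 to 399 in group 2a, and XCR1, the receptor of cross-presenting dendritic cells, had 99 to 378 normalized counts in group 2b against 23.1 to 77.3 in group 2a. CXCR6 (1.96), CCR2 (1.79) and CCR4 (1.61) were also higher, in addition to CXCR5 and CCR7. CCR6, which draws Langerhans cells to the epidermis, went the other way, with between 268 and 405 normalized counts in group 2b, with a median of 346, against 1188, 1595, 972, 1522 and 909 in group 2a (log2 fold change -1.82, SE 0.34, adjusted p = 3.31e-04), and CX3CR1, the fractalkine receptor of monocytes, had between 9.64 and 30.3 normalized counts in group 2b, with a median of 22.9, against 139.7, 36.9, 88.5, 53.2 and 32.7 in group 2a. Of 30 chemokines only CXCL13, CCL4 (654 to 2038 normalized counts in group 2b against 189.9 to 445 in group 2a) and CCL3 (1013 to 2098 normalized counts in group 2b against 147 to 933 in group 2a) were higher on both scales, and CCL5 (2.16 and 1.45) was called on the deposited scale alone.

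Of 34 cytokine receptor genes, 4 were higher on both scales and 8 were lower, beside 13.9% and 6.5% of all probes. The higher ones were the shared gamma chain IL2RG (2136 to 4978 normalized counts in group 2b against 533 to 1926 in group 2a), the beta chain IL2RB (1.81), IL21R (between 598 and 883 normalized counts in group 2b, with a median of 776, against 144, 96.1, 191, 137 and 237 in group 2a) and the interferon receptor chain IFNAR2 (between 210.2 and 302 normalized counts in group 2b, with a median of 272, against 87.9, 33.5, 82.5, 61.1 and 94.5 in group 2a). IL21, the ligand of IL21R and a product of follicular helper T cells, had 117 to 219.9 normalized counts in group 2b against 33.2 to 51.8 in group 2a. The lower ones were IL1RL1, the receptor of interleukin 33 (between 26 and 166 normalized counts in group 2b, with a median of 61.5, against 216, 332, 1301, 168 and 46.4 in group 2a), IL7R (-1.25), IL18R1 (-1.07) and its partner IL18RAP (-0.66), IFNGR1 (-0.89), IL10RA (-0.87), IL13RA1 (-0.87) and IL5RA (-0.74, at 3.6 to 10.5 normalized counts in group 2b against 4.47 to 11.6 in group 2a). IL1RL1 overlapped between the groups, replicate 3 of group 2a being the highest, and its call on the deposited scale was lost in 11 of 25 alternatives. Of 41 cytokines, IL21 and CSF1, the growth factor of macrophages (1539 to 3778 normalized counts in group 2b against 378 to 1138 in group 2a), were higher on both scales and LIF, of the interleukin 6 family, was lower (between 67.1 and 103 normalized counts in group 2b, with a median of 75.6, against 325, 896, 193, 125 and 375 in group 2a).

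Within the TNF superfamily, 5 of 33 were higher on both scales and 2 lower, shares near the 13.9% and 6.5% of all probes. The higher ones were LTA, LTB, FASLG (348 to 652 normalized counts in group 2b against 79.3 to 267 in group 2a, its equal-median call lost in 7 of 21 alternatives), CD27 and TNFRSF13B (1.33), and the lower ones were TNFSF11 and TNFRSF11A. TNFSF11, the ligand RANKL, had between 30.5 and 64.6 normalized counts in group 2b, with a median of 46.1, against 323, 626, 359, 69.1 and 105 in group 2a (log2 fold change -2.27, SE 0.46, adjusted p = 6.82e-04), and its receptor TNFRSF11A, RANK, had 157 to 359.7 normalized counts in group 2b against 298 to 576 in group 2a. The groups did not overlap for the ligand, replicate 4 of group 2a (69.1) being nearest to group 2b (64.6 at the highest), and overlapped for the receptor.

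The 12 probes with the lowest log2 fold changes included CCR6, CX3CR1, IL1RL1, LIF and TNFSF11 above. FABP7, a fatty acid binding protein, had between 1 and 1.28 normalized counts in 5 libraries of group 2b, at most 1 recovered count, and 12.5 in replicate 4, against 41.4, 77.1, 179.99, 86.1 and 5.45 in group 2a. Replicate 4 of group 2b thus lay above replicate 5 of group 2a. The fold change of FABP7 rests on values of at most 1 recovered count and is not read as a size. SERPINB2, an inhibitor of plasminogen activators, had between 57.2 and 102 normalized counts in group 2b, with a median of 80.5, against 435, 1346, 879.8, 1440.4 and 227 in group 2a (log2 fold change -3.14, SE 0.54, adjusted p = 1.73e-04). FLT3, the receptor kinase that drives dendritic cell development, had between 211 and 501 normalized counts in group 2b, with a median of 323, against 1869.95, 3647, 849.6, 1979 and 1333 in group 2a (log2 fold change -2.36, SE 0.35, adjusted p = 4.48e-05), and replicate 2 of group 2a was the highest. KLRG1, an inhibitory receptor that binds cadherins, had between 263 and 489 normalized counts in group 2b, with a median of 397, against 2219, 1665, 929, 898 and 951 in group 2a. ENTPD1, which is CD39 and breaks down extracellular ATP, had between 441 and 1145 normalized counts in group 2b, with a median of 960.2, against 2245, 1554, 2099, 3854 and 1622 in group 2a. CLDN1, a tight junction protein, had between 284 and 1157 normalized counts in group 2b, with a median of 398, against 1556, 1346, 1550.5, 1663 and 862 in group 2a, where replicates 1 and 6 of group 2b reached the level of group 2a, and its call on the deposited scale was lost in 13 of 25 alternatives.

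**Figure D4:**
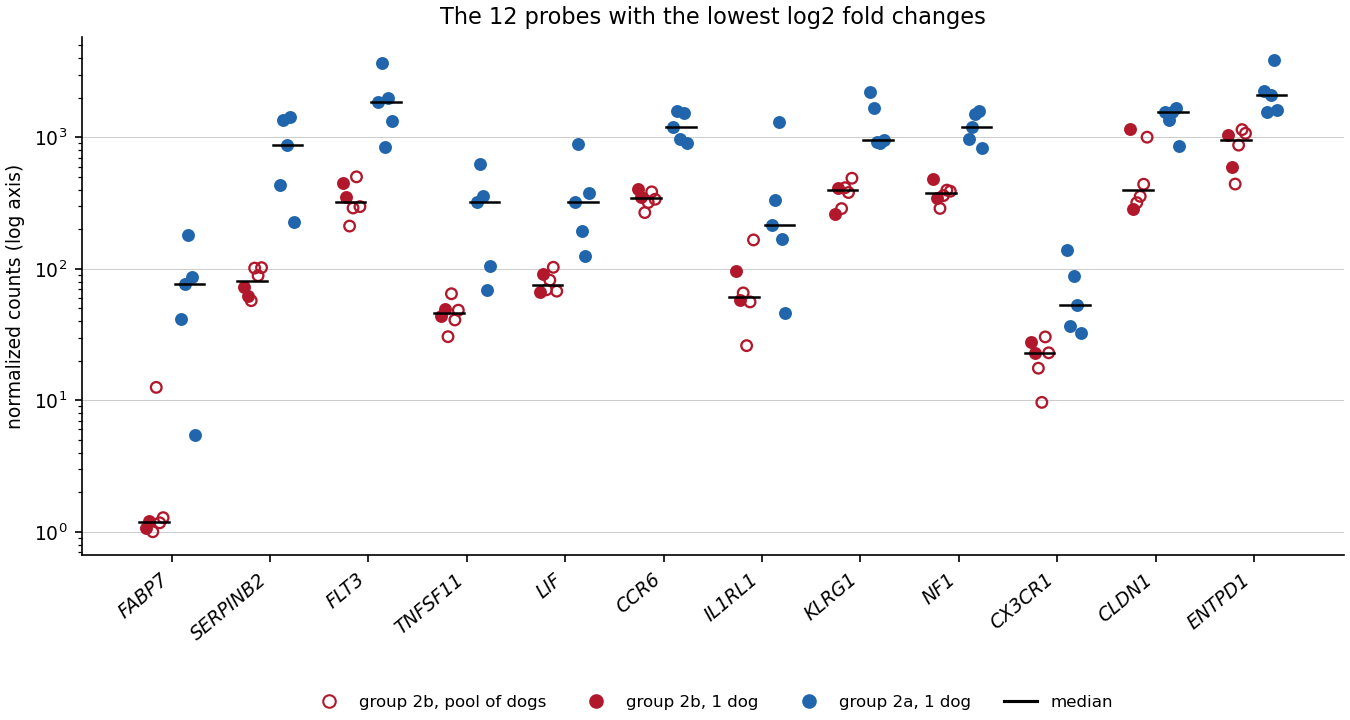
Normalized counts (y axis, log scale) in each library of group 2b (red, open for pools and filled for single dogs) and group 2a (blue), with the median as a bar, for the 12 probes with the lowest log2 fold changes among those called on both scales. FABP7, IL1RL1 and CLDN1 overlap between the groups and the other 9 do not.

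NF1, a brake on RAS, had between 288 and 482 normalized counts in group 2b, with a median of 375, against 975, 1189, 1494, 1575 and 832 in group 2a (log2 fold change -1.66, SE 0.20, adjusted p = 1.19e-05). Of 36 genes of the RAS, MAP kinase and PI3 kinase pathways, 7 were lower on both scales and 2 were higher. Beside NF1, the lower ones were FGFR3 (-0.97), DUSP6, which switches off ERK kinases and is itself switched on by them (-0.96, at 2252 to 3938 normalized counts in group 2b against 4134 to 7992 in group 2a), PIK3R1 (-0.83), PIK3CG (-0.78), MAPK11 (-0.44) and MAP2K1 (-0.40). The higher ones were FGFR1 (511 to 693 normalized counts in group 2b against 106 to 376 in group 2a) and PIK3CD, the PI3 kinase of lymphocytes (969.8 to 1526 normalized counts in group 2b against 203 to 779.9 in group 2a). A further 21 were lower on the equal-median scale alone, with 0.28 for BRAF and -0.28 for MAPK14 on the deposited scale, where they were not called. The list median was 0.07 on the deposited and -0.64 on the equal-median scale, beside 0.23 and -0.48 for all probes.

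Of 15 proliferation genes, 6 were lower on both scales and none was higher on both, and the median was -0.57 on the deposited and -1.28 on the equal-median scale. CCND1, cyclin D1, had between 420.1 and 934 normalized counts in group 2b, with a median of 699, against 1707, 1649, 1695, 2275 and 1191 in group 2a (log2 fold change -1.33, SE 0.26, adjusted p = 4.00e-04), CCND2 had 1278 to 2087 normalized counts in group 2b against 2476 to 3563 in group 2a and CDKN2C, an inhibitor of the kinases that cyclin D activates, had 444 to 624 normalized counts in group 2b against 746 to 1401 in group 2a. TYMS (-0.70), MYC (-0.69) and CDKN2A (-0.64) were also lower. The groups overlapped for MYC, at 435 to 669 normalized counts in group 2b against 444 to 1780 in group 2a. They also overlapped for CDKN2A, at 67.6 to 83 in group 2b against 74.7 to 233 in group 2a. MKI67, the usual proliferation marker, was called on the equal-median scale alone (-0.57 and -1.28), like PCNA (-0.63 and -1.35) and CDK1 (-0.55 and -1.27). CCND3, another D cyclin, was higher on the deposited scale alone (0.66 and -0.05). Of 9 DNA repair genes, 2 were lower on both scales, among them BRCA2 (121 to 181 normalized counts in group 2b against 149 to 344 in group 2a), though its call on the deposited scale was lost in 11 of 25 alternatives.

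Of 20 markers of Langerhans and dendritic cells, 4 were lower on both scales, FLT3, CCR6, TNFRSF11A and S100B (11.6 to 36 normalized counts in group 2b against 32.7 to 46.9 in group 2a, its deposited call lost in 11 of 25 alternatives), and 2 were higher, XCR1 and IRF8, a factor of B cells and of cross-presenting dendritic cells (between 1688 and 3256 normalized counts in group 2b, with a median of 1874, against 585, 196, 218, 358 and 481 in group 2a). CD207, langerin, the defining protein of Langerhans cells, was low in every library, at 11.6 to 21 normalized counts in group 2b against 13.6 to 24.6 in group 2a, and CD1E was at 12.8 to 35.7 normalized counts in group 2b against 7.27 to 177 in group 2a. The defining marker of the lineage was thus low in the tumor cell-enriched areas too. The summed level of the list ran from 5381 to 6236 in group 2b against 4846 to 10138 in group 2a. CD86, a B7 ligand that activates T cells and marks mature dendritic cells, had between 1323 and 3109 normalized counts in group 2b, with a median of 2756, against 7423, 4038, 2677, 4627 and 4739.6 in group 2a, while CD274 (PD-L1, 466.3 to 1147 normalized counts in group 2b against 123 to 241 in group 2a) and PDCD1LG2 (PD-L2, 604 to 1438 normalized counts in group 2b against 86 to 410.2 in group 2a), ligands that restrain T cells, were higher on both scales. On the deposited scale CD80, the other activating B7 ligand of the pair, did not fall with CD86. This does not hold for the equal-median scale, which lowers its difference by 0.71 as for every probe. CD80 had 600 to 1013 normalized counts in group 2b against 413 to 905 in group 2a on the deposited scale, and the groups overlapped. In all, 8 of 27 checkpoint genes were higher on both scales, among them TIGIT (1.84), LAG3 (1.69) and LAIR1 (1.91), and 3 were lower, KLRG1, ENTPD1 and CD86. HAVCR2, known as TIM-3, was lower on the equal-median scale alone (-0.63 and -1.34).

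Of 21 macrophage and monocyte genes, CD209 (between 1792 and 7268 normalized counts in group 2b, with a median of 3869.9, against 888, 234, 780.3, 223 and 1125 in group 2a) and MERTK, a receptor for dying cells (83 to 175 normalized counts in group 2b against 21.2 to 66.4 in group 2a), were higher on both scales, though MERTK lost its equal-median call in 12 of 21 alternatives, and 8 more were higher on the deposited scale alone, such as C1QB (1.66 and 0.95) and SPP1 (2.15 and 1.43). TYROBP, the signaling adaptor of myeloid receptors, was lower on both, with between 3374 and 5058 normalized counts in group 2b, with a median of 4283, against 10376, 6099, 8594, 9120.2 and 6087 in group 2a (log2 fold change -0.91, SE 0.15, adjusted p = 9.47e-05). NR1H3, the oxysterol receptor LXR alpha of macrophages, had between 758 and 2928 normalized counts in group 2b, with a median of 2669.7, against 154, 106, 437, 162 and 415 in group 2a, with replicate 1 of group 2b far below its group. C3, the central complement protein, had between 2789 and 4528 normalized counts in group 2b, with a median of 3509.7, against 416, 191, 2020.1, 419 and 298 in group 2a, where replicate 3 of group 2a came near group 2b, and CFB of the alternative complement pathway had 361 to 1340.2 normalized counts in group 2b against 74.7 to 319 in group 2a, its equal-median call lost in 8 of 21 alternatives, while C8A (-0.91) and CFD (-0.60) were lower on both scales. C8A was low throughout, at 5.1 to 19.2 normalized counts in group 2b against 10.9 to 26 in group 2a, and the groups overlapped. IDO1, which breaks down tryptophan, had between 899.6 and 7875 normalized counts in group 2b, with a median of 2399, against 592, 305, 333, 258 and 855 in group 2a, with replicate 2 of group 2b the highest, and NOS2, which makes nitric oxide, had 76.2 to 217 normalized counts in group 2b against 19.2 to 32.7 in group 2a.

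Markers of other cells in the punches were measured beside these, and their part in the differences above was not tested. The 17 granulocyte and mast cell genes summed to 1114 to 4348 in group 2b against 2771 to 19406 in group 2a, with S100A9 at 125 to 879.6 normalized counts in group 2b against 652 to 7035 in group 2a and called on the equal-median scale alone (-2.41 and -3.12). Few genes carried these sums: S100A8 (7574) and S100A9 (7035) in replicate 1 of group 2a, and KIT (4094 of 5351) in replicate 3. Of the 17, 13 were called on neither scale. The mast cell genes CMA1 (30.9 to 245 in group 2b against 22.7 to 171 in group 2a) and CPA3 (21.2 to 95.9 against 12.5 to 167) overlapped. Of 8 fibroblast and matrix genes only THY1, which T cells of some species also carry, was higher on both scales (1409.7 to 2319 normalized counts in group 2b against 576 to 1211 in group 2a), and COL1A1 was at 5371 to 10091 normalized counts in group 2b against 4260.2 to 11842 in group 2a (0.03 and -0.68, not called). The 6 keratinocyte genes summed to 306 to 1740.3 in group 2b against 497 to 1227 in group 2a, with TP63, the factor of basal epidermis, lower on both scales (52.6 to 138 normalized counts in group 2b against 116 to 223 in group 2a) and KRT14 not called (21.2 to 1132 normalized counts in group 2b against 32.2 to 666 in group 2a). Of 9 endothelial and vessel genes none was called on both scales. SOX10, a factor of melanocytes and Schwann cells, was at 8.17 to 21.6 normalized counts in group 2b against 11.8 to 24.6 in group 2a.

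Of 13 JAK and STAT genes only SOCS1, a brake on JAK kinases, was higher on both scales (between 379 and 898 normalized counts in group 2b, with a median of 623, against 211, 115, 145, 135 and 192 in group 2a), and 6 were higher on the deposited scale alone. STAT3 was called higher on the deposited scale and lower on the equal-median scale (0.40 and -0.32, adjusted p = 0.0132 and 0.0405), at 1763 to 2209 normalized counts in group 2b against 1309 to 1932 in group 2a, and MAPKAPK2, a kinase downstream of p38, did the same (0.35 and -0.36). STAT2 (0.72 and 0.0033, its call lost in 6 of 25 alternatives) was called on the deposited scale alone and JAK2 (0.0036 and -0.71) on the equal-median scale alone. The same held for BHLHE40 (0.71 and -0.00098), CD53 (0.73 and 0.01) and TNFRSF8 (0.70 and -0.01, its call lost in 15 of 25 alternatives), called on the deposited scale alone, and for ATG16L1 (-0.0012 and -0.72), IL15 (-0.01 and -0.72) and ST6GAL1 (0.01 and -0.71), called on the equal-median scale alone. For the 2 genes called in opposite directions, the deposited call of MAPKAPK2 was lost or turned in 14 of 25 alternatives and the equal-median call of STAT3 in 12 of 21. Of 39 Toll-like receptor and NF-kappaB genes, TRAF3, which restrains the B cell survival branch of NF-kappaB, was higher on both scales (between 786 and 1150.5 normalized counts in group 2b, with a median of 869.8, against 54.3, 182, 338, 258 and 143 in group 2a) and IRAK4 lower on both (454 to 620.5 normalized counts in group 2b against 629 to 975 in group 2a), while 10 were higher on the deposited scale alone and 19 lower on the equal-median scale alone.

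ITGAL, an integrin chain of lymphocytes, had 1196 to 2070.2 normalized counts in group 2b against 194 to 671 in group 2a, and with ICAM2 (556 to 728 normalized counts in group 2b against 141 to 359 in group 2a) it was among the 3 of 31 adhesion genes higher on both scales, ICAM2 losing its equal-median call in 13 of 21 alternatives. CD58, the ligand of CD2, was lower on both (-0.43). In antigen presentation, DLA-DOB, a class II chain found mainly in B cells, had between 717 and 2506 normalized counts in group 2b, with a median of 1079.8, against 64.7, 260.3, 333, 243 and 141 in group 2a, the only one of 11 class II genes higher on both scales, and NLRC5, which switches on class I genes (1174 to 1492 normalized counts in group 2b against 385 to 1093 in group 2a), was the only one of 11 class I genes. IRF1 (2143 to 4173 normalized counts in group 2b against 734 to 1785 in group 2a), IRF8, IDO1 and NLRC5 were the 4 of 25 interferon response genes, while ISG15 (64.6 to 157 normalized counts in group 2b against 69.3 to 204 in group 2a) and MX1 (195 to 406 normalized counts in group 2b against 116 to 571 in group 2a), direct targets of type I interferon, were not called. ISG15 and MX1 do not stand for the whole list. Across its 25 genes, 12 were higher on the deposited scale, beside 32.2% of all probes. On the equal-median scale 5 of them were lower, beside 38.2% of all probes. SMAD3, which carries TGF-beta signals to the nucleus, had between 157 and 298 normalized counts in group 2b, with a median of 222, against 46.5, 38, 86.5, 32.8 and 81.8 in group 2a. LOC480600, a protein-coding gene for which the annotation used here gives no other name, had between 138 and 362 normalized counts in group 2b, with a median of 260.4, against 14.2, 15.6, 17.1, 27.2 and 44.5 in group 2a.

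The other pair of groups, group 3 against group 1, shares no library with this comparison, though stage and kind of area differ together there. DV200 was 64.5 to 71.2% in group 1 and 71.2 to 75.8% in group 3, though the sources differ on a group 3 library. The median probe stood at 159 to 259 normalized counts in group 1 and at 324 to 363 in group 3. This shift has the same direction as that in stage 2. The part of RNA integrity and of the shift in the shared calls was not tested. Group 3 against group 1 called 39.9% of probes on the deposited scale and 55.2% on the equal-median scale. Of the 111 probes higher on both scales, 104 were also called higher in group 3 on the deposited scale, where 29.4% of all probes were, and 79 on both scales, where 14.4% were. Both pairs used the same estimate of each probe's spread, so their calls are not independent. Of the 52 lower probes, 34 were called lower on the deposited scale (10.5% of all probes) and 34 on both (10.5%). The median log2 fold change of the 111 was 2.04 in group 3 against group 1, beside 2.13 in group 2b against group 2a. For no probe did the difference between the pairs pass an adjusted p of 0.05 in limma, with a smallest adjusted p of 0.396 on the deposited and 0.413 on the equal-median scale, and 57 and 46 probes had an unadjusted p under 0.05.

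PAX5 was 1.52 (adjusted p = 0.0891) in group 3 against group 1 and 4.85 in group 2b against group 2a, MS4A1 was 2.41 beside 4.43, CR2 1.89 beside 4.20 and DLA-DOB 0.82 beside 2.66. The difference of differences for PAX5 was 3.34 (unadjusted p = 0.00235, adjusted p = 0.396), which did not pass. Of the T cell genes, EOMES was at 3.32 beside 3.13, GZMK at 3.96 beside 3.07 and ITGAL at 3.04 beside 2.17. Among the lower genes, FLT3 (-2.49), SERPINB2 (-3.40), TNFSF11 (-2.29) and NF1 (-1.76) were called lower there too, and IL1RL1 (-0.37) and CLDN1 (-0.59) were not called.

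**Figure D5:**
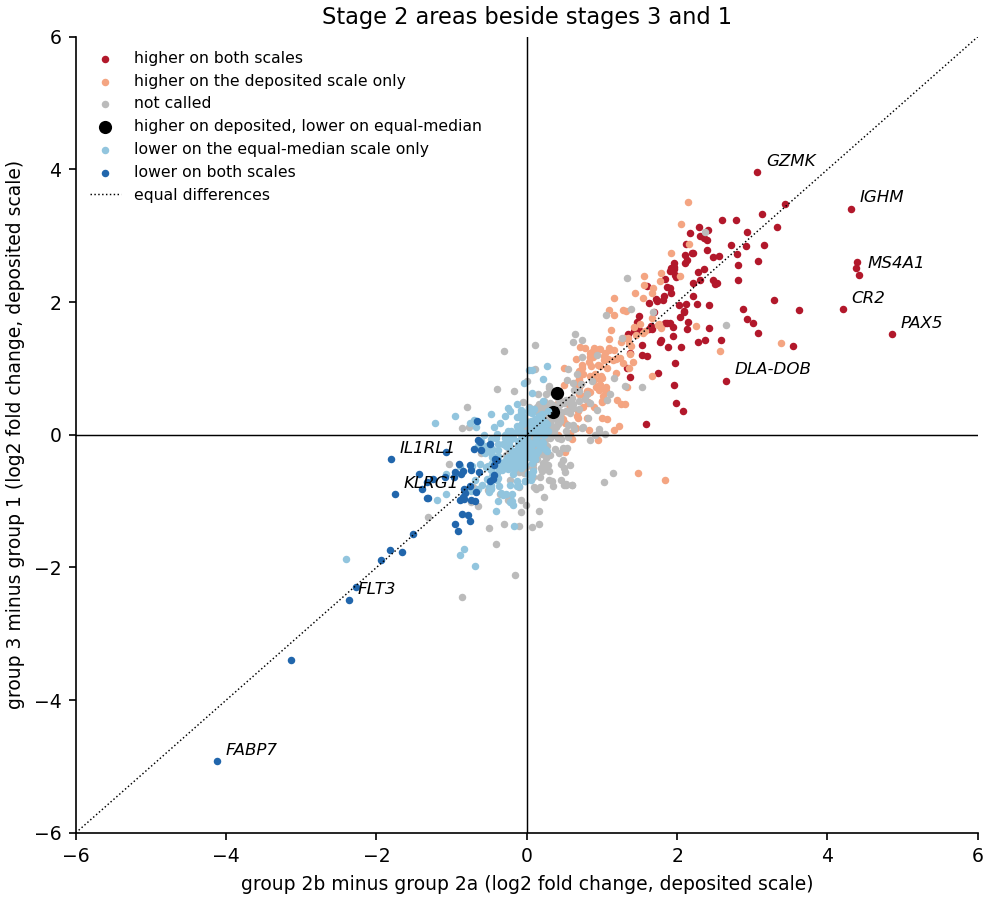
Each point is 1 of 800 probes, with the log2 fold change of group 2b minus group 2a on the x axis and of group 3 minus group 1 on the y axis, both on the deposited scale and from separate libraries; colors give the stage 2 call and the dotted line marks equal differences. PAX5, at 4.85 and 1.52, lies furthest below the line among the labeled genes, and FLT3, at -2.36 and -2.49, lies near it.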

How the data were processed

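The panel was read in 21 libraries of RNA from FFPE tissue. The authors counted probes, controlled quality and normalized in nSolver at default settings, and the deposited values are normalized signal on a linear scale, with an R 3.3.2 plug-in for their tests. Here 100% of values not raised to 1 came out as whole counts, within 0.01 counts, when divided by 1 step per library, less firmly where low values were few. A further 18 values were at the floor of 1. Symbols of 773 probes were found in the annotation, 4 more through a gene identifier, and 23 probes keep the name in the table. Sequences were not used here, and a planned search of promoters for motifs was not run.

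log2(value + 1) was fitted with limma 3.58.1 in R 4.3.3 (lmFit, eBayes with trend) over 21 libraries and 4 group means, on the deposited scale and after a shift to equal library medians. Tests were two-sided and were checked on simulated data. edgeR 4.0.16 and DESeq2 1.42.0 ran on recovered counts as alternatives, as did other pseudocounts, scalings, filters, adjustments and sets of libraries. 38 gene lists held 560 of the probes. The comparison and the gene lists were chosen with earlier results of these data known. Named are the 12 highest and 12 lowest log2 fold changes among probes called alike on both scales, up to 3 such probes per list, probes of opposite call, 4 probes (of up to 8) called on each scale alone with the smallest value on the other, and other members of a list where a count was 5 or fewer. Probes under 20 normalized counts in both groups were left out of these picks. Some genes that meet these rules are not reported here. Further members of the lists, given to show which did not move, were chosen after their values were seen. P values from limma weigh a difference against the spread within groups of these 21 libraries.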

Additional observations from a re-analysis of the deposited data

Results flagged for a closer look

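In 13 of 194 groups of values examined (97 genes and library measures in each of groups 2b and 2a), 1 library lay apart from its group by more than Dixon's 95% limit, and chance flags about 1 in 20. In group 2b, replicate 1 was low for NR1H3 (758 normalized counts, others 2488 to 2928). Replicate 2 was low for CXCL13 (1989, others 6169 to 11388), THY1 (1409.7, others 2156 to 2319) and ST6GAL1 (722, others 929 to 1013), and high for CD274 (1147, others 466.3 to 571). Replicate 3 was high for POU2AF1 (962, others 513 to 621) and IRF8 (3256, others 1688 to 2047) and low for CD86 (1323, others 2525 to 3109). Replicate 4 was high for FABP7 (12.5, others 1 to 1.28). Replicate 5 was high for IGHM (14077.5, others 5546 to 7859.9) and low for TNFRSF8 (16.3, others 25.5 to 30.9). In group 2a, replicate 5 was high for CXCR3 (205, others 46.4 to 65.95) and replicate 2 low for STAT2 (450.3, others 969 to 1195). No named gene differed between group 2b minus group 2a and group 3 minus group 1 after adjustment.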

How the results depend on the processing

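Without the 4 pooled libraries of group 2b, which leaves 2, 123 probes were called on the deposited scale (104 higher), 147 on the equal-median scale (34 higher) and 53 alike on both. The Benjamini-Yekutieli adjustment gave 193, 255 and 91. Leaving out 1 library at a time gave 257 to 304, 348 to 459 and 138 to 174. The other alternatives kept these counts within 1.5 times, but on the deposited scale quantile normalization called 138 of 327 probes higher and TMM factors 156 of 329, against 258 of 310, and edgeR called 289 and DESeq2 328 probes on recovered counts. MAPKAPK2 turned to -0.11 under quantile normalization and -0.053 under TMM factors, and STAT3 turned to -0.010 under TMM factors, and the cause was not tested. Of the 91 named probes called on each scale, 51 kept direction and call under all alternatives on the deposited scale and 42 on the equal-median scale. The labels do not pair libraries: same-numbered libraries of groups 2b and 2a had correlated deviations of -0.096 to 0.19, only 1 of 5 fitting best with its own number, and a replicate block gave 265, 379 and 150 calls. Low normalized counts, as for FABP7, LTA, CD207, FOXP3 and BATF, limit what can be read from those probes.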
